A study of Mus musculus with 32 samples.

Results

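*Vrtn*, *Capn3*, *Cnpy1*, *Emb*, *Epas1*, *Adam19*, *Casq1* and *Adk* are the 8 mouse genes (members) followed here. Each was lower in *Etv5*-KO than in parental embryonic stem cells (ESCs) at 16 h after withdrawal of 2i. They are only part of a larger group that the study reports as lower there, with an ETV5 binding peak near each. From that group the study's text names *Lef1*, *Fgf5* and *Pou3f1*, which are not among the members. The members were chosen by the 16 h difference. They were looked up by symbol in the table of gene counts, 8 of its 51826 genes. All 8 were among the 18892 genes with enough counts to be tested. Total RNA-seq libraries were made from RGd2, an ESC line with a Rex1-GFPd2 reporter of naive status, and from clonal mutants of it, 32 libraries in 11 conditions with 3 libraries each except *Etv5*-KO at 16 h, which has 2. 2i is serum-free N2B27 medium with a MEK inhibitor and a GSK3 inhibitor (CH), and it holds ESCs in the naive state. RGd2 was sampled in 2i, in 2i at passage 5 (2i-p5), 16 h and 72 h after transfer to plain N2B27 (N16h and N72h) and at passage 2 in CH alone (CHp2). The paper states that lines were routinely grown in CH with the cytokine LIF and moved to 2i shortly before assays. The 2i and 2i-p5 cultures may therefore differ in their time in 2i. Each RGd2 condition has 2 libraries of the uncloned parental line 1903.4 and 1 of the clonal line 1903.4-2. *Etv5*-KO was sampled in 2i (clones c16, c17 and c1) and at N16h (c17 and c1), and *Rbpj*-KO in 2i and at N16h (c28, c33 and c36 in both). The *Etv5* and *Rbpj* double mutant (ER-dKO) was sampled at passage 5 in CH, from the lines (Ec1)Rc43, ERc7 and ERc9. The triple mutant of *Etv5*, *Rbpj* and *Tcf3* (ETR-tKO) was sampled at passage 5 in plain N2B27, from the lines (ETc1)Rc53, (Tc1)ERc2 and (Tc1)ERc10. The label (Ec1)Rc43 names clone c1 of *Etv5*-KO as its parent, so that line and the single mutant share their *Etv5* lesion. (Tc1)ERc2 and (Tc1)ERc10 share the parent clone Tc1 by their labels, so that 2 of the 3 ETR-tKO lines share their *Tcf3* lesion and are not independent for it.

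ETV5 is an ETS transcription factor of the PEA3 group, with ETV4 and ETV1 as its close relatives, and in many tissues its gene is transcribed in response to FGF-ERK signalling. RBPJ is the DNA-binding effector of Notch signalling, and TCF3, encoded by *Tcf7l1*, is a repressor that is relieved by beta-catenin when GSK3 is inhibited. The 8 genes belong to no single pathway. *Vrtn* encodes vertnin, a nuclear protein known for its part in thoracic vertebra number, and *Epas1* encodes HIF-2alpha, an oxygen-regulated transcription factor. *Emb* (embigin) is a membrane glycoprotein of the immunoglobulin superfamily that escorts monocarboxylate transporters, *Adam19* is a membrane metalloprotease, and *Cnpy1* is a canopy protein known as a positive regulator of FGF signalling in zebrafish. *Capn3* is a calcium-dependent protease and *Casq1* a calcium store protein, both best known from skeletal muscle, and *Adk* is the kinase that converts adenosine to AMP.

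The mutations were made with Cas9 and a pair of guides per gene, which are shown because they fix which part of each transcript was targeted. Each was found in a coding exon of its gene in the reference transcripts (GRCm38), and the capitals mark the PAM next to it.
*Etv5* exon 8, chr16:22401804-22401823, minus strand: cgcagctccgccaccccttcAGG
*Etv5* exon 9, chr16:22399336-22399355, plus strand: gaaatacccgcctctcatgtAGG
*Rbpj* exon 5, chr5:53645980-53645999, minus strand: tgacctttatccgcttgctgAGG
*Rbpj* exon 7, chr5:53649718-53649737, minus strand: gcttgacagtctgcccgtaaTGG
*Tcf7l1* exon 1, chr6:72788844-72788863, plus strand: tcagctcgtcgttcgctccgAGG
*Tcf7l1* exon 3, chr6:72788228-72788247, plus strand: gagacaggggtccgttggagAGG
Counts were made per gene and not per exon, so reads from exons outside the targeted part were still counted in the mutants.

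Promoter sequence is shown for *Vrtn*, the gene with the largest loss in *Etv5*-KO, and for *Adk*, whose small change there was called or not depending on the scaling and on single libraries. ETS factors bind a GGAA core, and PEA3 factors are known to prefer CCGGAAGT. RefSeq promoter windows of 250 bases upstream of each start (GRCm38.p6) were searched on both strands for CCGGAAGT, CCGGAA and GGAAGT, the shorter of which lie within the longer. Over all 32851 windows, 2.88% held CCGGAAGT, 12% held CCGGAA and 19.7% held GGAAGT. Windows were at hand for 7 of the 8 genes, 14 windows in all, and not for *Epas1*. None of the 14 held CCGGAA, and GGAAGT was in 1 of them, the window before the annotated start of *Vrtn*, where it occurs at position −168 on the plus strand and at position −82 on the minus strand (counted from the start, written in capitals, the latter as ACTTCC).
*Vrtn*, chr12:84640769-84641018, plus strand: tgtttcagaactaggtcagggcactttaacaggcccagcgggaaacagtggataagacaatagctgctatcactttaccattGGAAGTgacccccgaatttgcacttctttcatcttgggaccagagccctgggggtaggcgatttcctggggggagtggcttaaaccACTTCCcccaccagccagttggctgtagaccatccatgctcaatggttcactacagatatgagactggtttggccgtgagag
*Adk*, chr14:21052324-21052573, plus strand: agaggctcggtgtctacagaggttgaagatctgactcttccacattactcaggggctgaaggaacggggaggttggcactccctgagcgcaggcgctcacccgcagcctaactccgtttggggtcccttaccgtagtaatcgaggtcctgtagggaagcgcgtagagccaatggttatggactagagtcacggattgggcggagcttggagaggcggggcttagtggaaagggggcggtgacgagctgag
The window of *Adk* held none of the motifs. These matches describe letters in short windows only, and binding was not analysed here.

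The annotated genes lie on 8 chromosomes of GRCm38/mm10. *Vrtn* is at chr12:84641019-84651455 on the plus strand, *Capn3* at chr2:120456019-120504913 (plus), *Cnpy1* at chr5:28200819-28245806 (minus) and *Emb* at chr13:117220625-117274098 (plus). *Epas1* is at chr17:86753907-86833410 (plus), *Adam19* at chr11:46055992-46147343 (plus), *Casq1* at chr1:172209894-172219868 (minus) and *Adk* at chr14:21052574-21448568 (plus). Values below are counts per gene divided by the size factor of the library, which was calculated from the ERCC spike-in RNAs (normalized counts). Levels of different genes are compared only as FPKM, which also divides by gene length. A gene is called changed when its adjusted p is under 0.05 in edgeR's quasi-likelihood test (two-sided, Benjamini-Hochberg adjustment over the 18892 genes) and its mean FPKM is at least 1 in either group. Whether libraries of compared groups overlap is given as a description of each gene. The share of all genes without overlap was not computed, so counts of genes without overlap have no background to be read against.

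The targeted genes were checked first. *Etv5* had normalized counts of 16791, 14116 and 15517 in RGd2 and 2246, 2092 and 2384 in *Etv5*-KO in 2i, 6.9-fold lower with no overlap (log2 fold change −2.79, SE 0.16, adjusted p = 3.82e-17). It was 1954, 1397 and 1684 in ER-dKO and 2547, 1112 and 1843 in ETR-tKO against 10666, 11868 and 10345 in RGd2 at 2i-p5, again with no overlap. All *Etv5* mutants thus kept a lowered *Etv5* transcript level. *Rbpj* fell to 976, 1066 and 1249 in *Rbpj*-KO in 2i from 5097, 4328 and 3981 in RGd2 (log2 fold change −2.02, SE 0.21, adjusted p = 3.67e-09). In ER-dKO it was 1138, 1307 and 3489, and the highest of these, the library labelled ERc9 (replicate 12), was above all of 2830.2, 3385 and 2853 in RGd2 at 2i-p5. That library therefore goes against its label at the level of *Rbpj* counts, and calls that changed without it are named below. In ETR-tKO *Rbpj* was 1559, 2281 and 2348, below those RGd2 libraries. *Tcf7l1* was 29.1, 120.4 and 107 in ETR-tKO against 495, 592 and 463 in RGd2 at 2i-p5, a log2 fold change of −2.66 (SE 0.25, adjusted p = 1.65e-11), and replicate 13, the line (ETc1)Rc53, had the lowest level. Replicates 14 and 15, of the Tc1 lines, differed by a chi-square per gene of 4.91, against 23.2 and 27.6 between replicate 13 and each of them.
The relatives of ETV5 did not stay level. *Etv4* had normalized counts of 120.0, 116 and 105 in RGd2 and 486, 387 and 484 in the 2i libraries of *Etv5*-KO (log2 fold change 1.97, SE 0.14, adjusted p = 6.91e-14). It stood at 18.9, 30.2 and 26.7 in RGd2 at 2i-p5, 5495, 4963 and 5275 in ER-dKO and 5488, 5586 and 5396 in ETR-tKO, 199-fold and 208-fold higher in the combined mutants (log2 fold changes 7.63, SE 0.18, adjusted p = 4.49e-30 and 7.70, SE 0.18, adjusted p = 3.38e-30). The same direction was seen for *Etv1*, with log2 fold changes of 0.50 (SE 0.13, adjusted p = 0.00381) in *Etv5*-KO, 2.89 (SE 0.15, adjusted p = 7.64e-19) in ER-dKO and 3.29 (SE 0.15, adjusted p = 1.15e-20) in ETR-tKO. Without ERc9 the ER-dKO values were 7.63 for *Etv4* and 2.83 for *Etv1*, and both were still called. The ER-dKO and ETR-tKO cultures held no MEK inhibitor, unlike the 2i controls. In RGd2 without it, mean *Etv4* was 1331 at CHp2 and 837 at N72h, against 25.3 (0.354 FPKM) at 2i-p5. The means were 5244 in ER-dKO and 5490 in ETR-tKO. Mean *Etv1* was 423 at CHp2 and 475 at N72h in RGd2, 1205 in ER-dKO and 1592 in ETR-tKO. The part of the medium in the fold changes above was not tested.

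**Figure D1:**
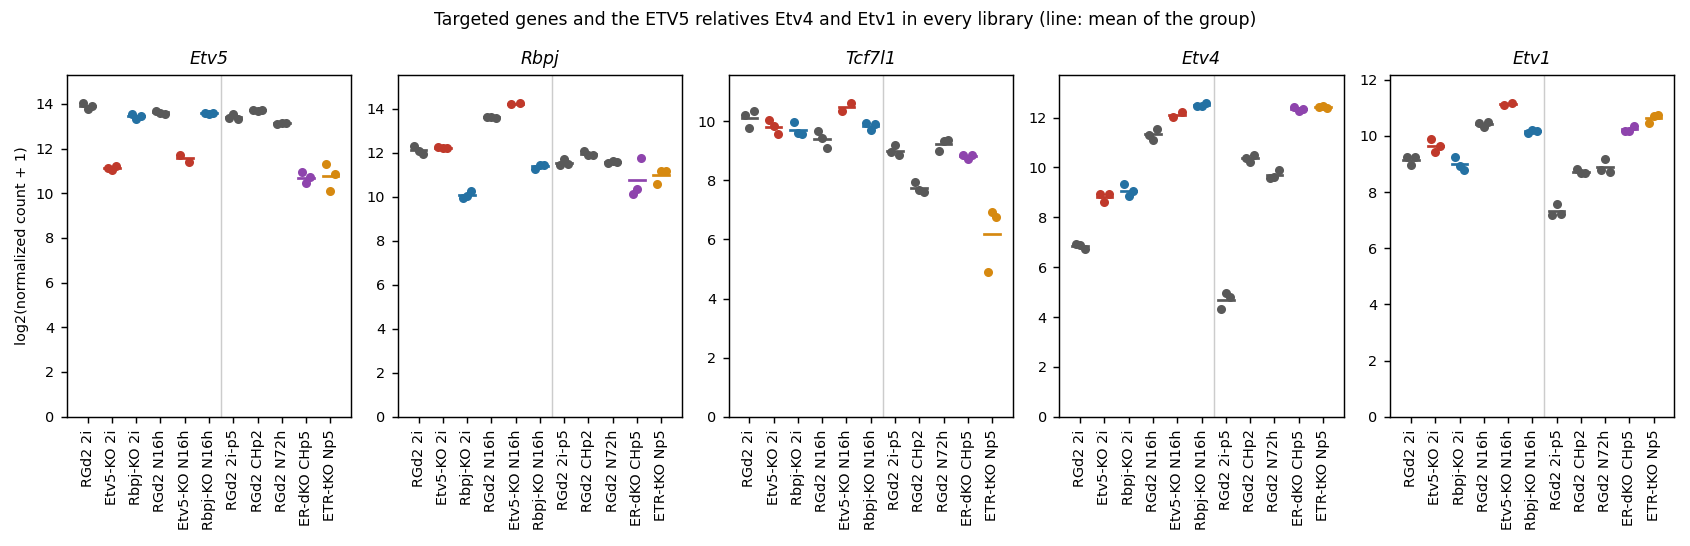
Normalized counts of *Etv5*, *Rbpj*, *Tcf7l1*, *Etv4* and *Etv1* on a log2(count + 1) axis for each library (points), with the mean of each condition as a line and a vertical line between the single mutant set and the combined mutant set. Within ER-dKO, 1 library has an *Rbpj* level like RGd2, and *Etv4* is highest in ER-dKO, ETR-tKO and *Rbpj*-KO N16h.

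Libraries held 5986857 to 71439411 counts on genes, with a median of 29940141, and the lowest was RGd2 2i replicate 33. The labels name separate clones for the mutants, while the parental RGd2 libraries of a condition are not said to come from separate cultures, so that p-values there measure the spread between libraries. Scaling by spike-ins moved the median of all genes: it was −0.23 on the log2 scale in *Etv5*-KO against RGd2 in 2i, 0.20 in ER-dKO and 0.27 in ETR-tKO against RGd2 at 2i-p5, and −0.37 in RGd2 at 2i-p5 against 2i. With TMM scaling of the gene counts these medians lay within 0.02 of 0, and counts of calls with TMM are given beside the others. Fold changes below are to be read relative to these medians. ESC markers (*Pou5f1*, *Sox2*, *Nanog*, *Esrrb*, *Klf4*, *Zfp42* and *Tfcp2l1*) were summed, and are called naive markers below. Their sum was 1165 to 1469 FPKM in the 2i, ER-dKO and ETR-tKO libraries. In RGd2 it was 611 to 631 at CHp2 and 419 to 436 at N72h. *Pou5f1* and *Sox2* are general pluripotency genes, and *Pou5f1* was 370 FPKM in RGd2 2i-p5 and 343 at N72h. *Nanog* went from 328 to 31.9 between these, *Esrrb* from 105 to 5.83, *Klf4* from 12.4 to 0.876, *Zfp42* from 161 to 11.6 and *Tfcp2l1* from 81.7 to 2.71. The sum thus fell less than these genes. At 16 h the sum was 879 to 903 in RGd2, 1093 to 1170 in *Rbpj*-KO and 1282 to 1373 in *Etv5*-KO. All 7 had at least 1 FPKM in each condition except RGd2 N72h, where *Klf4* did not. Of the markers of other cells, the mesendoderm list (*T*, *Mixl1*, *Eomes* and *Gsc*) reached 69.9 to 73.4 FPKM in RGd2 CHp2 and was at most 16.4 elsewhere. That CHp2 sum was nearly all *T* (69.1). The trophoblast list (*Cdx2*, *Krt8*, *Krt18* and *Tfap2c*) reached 169 to 179.7 in RGd2 N72h. This came from *Krt8* (58.0) and *Krt18* (117.5). *Cdx2* (0.0404 against 2.46 at 2i-p5) and *Tfap2c* (0.609 against 16.8) went the other way in RGd2 N72h. The neural list (*Sox1*, *Pax6*, *Nes* and *Tubb3*) was highest there too (77.0 to 92.4), while the endoderm (*Gata4*, *Gata6*, *Sox17* and *Foxa2*) and fibroblast (*Col1a1*, *Col1a2*, *Thy1* and *Dcn*) lists stayed at or under 7.49 FPKM in every library. The muscle regulators *Myod1* and *Myog* were at most 0.101 FPKM in every condition, and the summed muscle list (with *Des*, *Acta1* and *Ckm*) was at most 4.92 except in RGd2 N72h (28.8 to 32.2). In bulk RNA, fewer cells that express a gene and less RNA of it per cell cannot be told apart.

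The genes were selected on the 16 h values, lower in *Etv5*-KO N16h than in RGd2 N16h, which are therefore given as a description only. *Vrtn* stood at 482, 451 and 251 in RGd2 N16h and 16.8 and 14.8 in *Etv5*-KO N16h, 25-fold lower. *Capn3* was 1809, 1779 and 996 in RGd2 and 331 and 472 in *Etv5*-KO, 3.81-fold lower. For the other 6 the loss was smaller, 2.08-fold for *Epas1*, 1.94-fold for *Emb*, 1.91-fold for *Adam19*, 1.79-fold for *Casq1*, 1.63-fold for *Cnpy1* and 1.52-fold for *Adk*. In each of the 8 genes both *Etv5*-KO libraries were below all 3 RGd2 libraries, as their selection required in direction, whereas over all genes the median log2 fold change was 0.24 and 25.8% of genes were below 0. The *Rbpj*-KO values at 16 h share the RGd2 libraries with that selection and are likewise only described. *Vrtn* was 39.7, 35.5 and 36.3 in *Rbpj*-KO N16h, 10.6-fold below RGd2, and *Adam19* was 1.39-fold lower without overlap. *Casq1* stood the other way, at 274, 298 and 382 in *Rbpj*-KO against 159.7, 169 and 105 in RGd2, and *Epas1* was 1.32-fold higher. *Capn3*, *Cnpy1*, *Emb* and *Adk* overlapped between *Rbpj*-KO and RGd2 at 16 h. The summed naive markers given above also differed between these groups at 16 h, and their part in the values was not tested. Beside RGd2 N16h, again without a test, ETR-tKO was lower for *Capn3* (3.8-fold), *Epas1* (3.12), *Casq1* (2.8) and *Adam19* (1.72). It overlapped for *Vrtn* and *Emb* and was higher for *Cnpy1* (2.57) and *Adk* (1.15). ER-dKO was lower for *Casq1* (15.7-fold), *Capn3* (11.1), *Epas1* (9.13), *Vrtn* (4.52), *Emb* (2.49), *Adam19* (2.18) and *Adk* (1.55), and higher for *Cnpy1* (2.45).

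**Figure D2:**
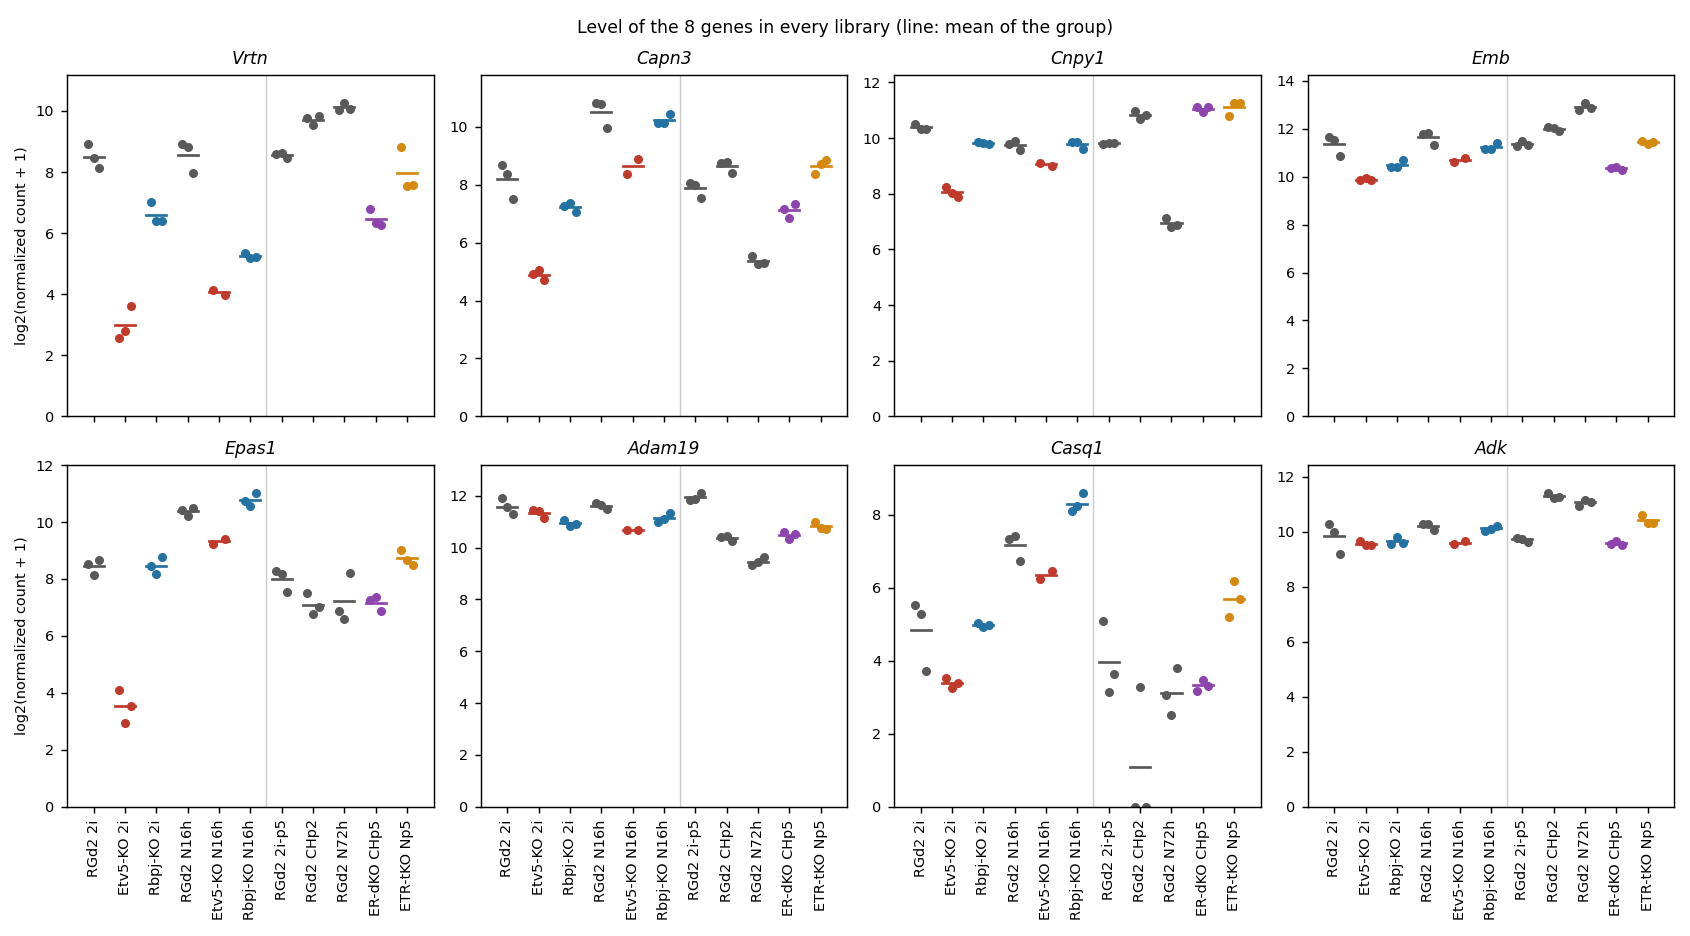
Normalized counts of the 8 genes on a log2(count + 1) axis for each library (points), with the mean of each condition as a line and a vertical line between the single mutant set and the combined mutant set. *Vrtn*, *Capn3* and *Epas1* are lowest in *Etv5*-KO 2i, and in ETR-tKO all 8 genes lie above *Etv5*-KO 2i except *Adam19*.

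In 2i, 6 of the 8 genes were called lower in *Etv5*-KO than in RGd2, of which *Adk* depended on single libraries. The rule of selection named the 16 h libraries, but clones c1 and c17 are in both sets. Earlier results of these data were also known, so the 2i values are not independent of the selection. *Vrtn*, *Epas1*, *Capn3*, *Cnpy1*, *Emb* and *Adk* were called lower, from 49.7-fold for *Vrtn* to 1.3-fold for *Adk*. Over all genes at the FPKM minimum 27.9% were called lower and 6.14% higher, 3227 and 710 genes, while TMM scaling gave 1687 lower and 2115 higher. Under TMM 5 of the 8 were called lower, all of these 6 except *Adk*.
Of the transcription regulators, *Vrtn* had 482, 351 and 283 normalized counts in RGd2 and 4.88, 5.91 and 11.4 in *Etv5*-KO, a log2 fold change of −5.63 (SE 0.35, adjusted p = 3.92e-16). The RGd2 and mutant libraries did not overlap, and the mutant mean of 0.0821 FPKM was under the minimum of 1 FPKM. *Epas1* had 371, 279.6 and 404 in RGd2 and 16, 6.75 and 10.7 in *Etv5*-KO, 29.9-fold lower (log2 fold change −4.90, SE 0.34, adjusted p = 2.20e-14). Both regulators were thus close to undetected in the 3 *Etv5*-KO clones in 2i.
The calcium-linked genes were both lower in level, and *Capn3* passed the test. *Capn3* went from 409, 332 and 182 in RGd2 to 29.3, 32.1 and 25.2, 11.3-fold lower (log2 fold change −3.50, SE 0.25, adjusted p = 3.29e-14), with no overlap. *Casq1* counts were 44.8, 37.4 and 12.1 in RGd2 and 10.4, 8.44 and 9.46 in *Etv5*-KO, a log2 fold change of −1.92 (SE 0.41, adjusted p = 0.00045), and its FPKM was under 1 in both groups, so it was not called.
Among the surface and FGF-linked genes, *Cnpy1* was 1455, 1285 and 1280.0 in RGd2 and 301, 263 and 238 in *Etv5*-KO, 5.03-fold lower and without overlap (log2 fold change −2.33, SE 0.13, adjusted p = 1.17e-17). *Emb* was 3258, 2942 and 1841 and 919.6, 969 and 928, 2.88-fold lower and without overlap (log2 fold change −1.53, SE 0.14, adjusted p = 1.67e-11). *Adam19*, at 3834, 3008 and 2536 and 2819, 2699 and 2266, overlapped between the groups and was not called (log2 fold change −0.28, SE 0.12, adjusted p = 0.09, 95% interval −0.52 to −0.03). *Adk*, at 1258, 1024 and 581 and 809, 733 and 727, also overlapped, and its call (log2 fold change −0.38, SE 0.14, adjusted p = 0.0412) was lost under TMM scaling (−0.16, adjusted p = 0.343), median-of-ratios scaling (−0.17, adjusted p = 0.292) and in a model of only these libraries (−0.36, adjusted p = 0.252). It was lost too without any 1 of 4 of the 6 libraries, RGd2 replicates 31 (−0.15, adjusted p = 0.514) and 32 (−0.34, adjusted p = 0.112) and *Etv5*-KO replicates 26 (−0.35, adjusted p = 0.112) and 27 (−0.35, adjusted p = 0.128). RGd2 2i replicate 33, the shallowest library, had the lowest RGd2 level of *Emb*, *Adk*, *Capn3*, *Casq1*, *Vrtn*, *Cnpy1* and *Adam19*, and without it *Adam19* was also called lower (log2 fold change −0.40, adjusted p = 0.00752).

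In *Rbpj*-KO 5 of the 8 genes were lower in 2i, against the same RGd2 libraries. *Vrtn* was 128, 83.3 and 83.2 in *Rbpj*-KO, 4.04-fold lower (log2 fold change −2.01, SE 0.26, adjusted p = 3.40e-07), and all 3 clones were below all RGd2 libraries. *Capn3* was 151, 164 and 133, 2.18-fold lower (log2 fold change −1.12, SE 0.22, adjusted p = 0.000266), *Emb* 1.87-fold (−0.91, SE 0.14, adjusted p = 4.62e-06), *Adam19* 1.6-fold (−0.68, SE 0.12, adjusted p = 0.000127) and *Cnpy1* 1.48-fold (−0.57, SE 0.12, adjusted p = 0.000786), none of them overlapping. The *Cnpy1* call was lost in a model of only the libraries compared (−0.57, adjusted p = 0.0792) and with a fold minimum of 1.5. *Epas1*, at 347, 291 and 439.6, was not called, with a log2 fold change of 0.07 and a 95% interval of −0.41 to 0.55. *Casq1* (−0.25, adjusted p = 0.769) and *Adk* (−0.28, adjusted p = 0.241) were not called either, though *Adk* was without RGd2 replicate 33 (−0.50, adjusted p = 0.00146). Of all genes at the FPKM minimum 6.12% were called lower and 5.24% higher, 707 and 605 genes, and 900 lower and 1249 higher with TMM. *Etv5* itself was lower in *Rbpj*-KO in 2i (log2 fold change −0.48, SE 0.15, adjusted p = 0.0284), and its part in these values was not tested.
Set directly against each other, the single mutants differed. *Epas1* was 31.4-fold lower in *Etv5*-KO than in *Rbpj*-KO (log2 fold change −4.97, SE 0.34, adjusted p = 1.42e-14), *Capn3* 5.19-fold (−2.37, SE 0.26, adjusted p = 2.70e-09), *Cnpy1* 3.39-fold (−1.76, SE 0.12, adjusted p = 2.93e-14) and *Emb* 1.54-fold (−0.62, SE 0.14, adjusted p = 0.000602). *Vrtn* was 12.3-fold lower (−3.62, SE 0.38, adjusted p = 1.32e-09), but its mean FPKM was under 1 in both mutants and it was not called. *Adam19* was the exception in direction, 1.32-fold higher in *Etv5*-KO (0.40, SE 0.12, adjusted p = 0.0152). Its call was lost without any 1 of 4 of the 6 libraries, *Etv5*-KO replicates 25 (0.34, adjusted p = 0.0750) and 26 (0.38, adjusted p = 0.0594) and *Rbpj*-KO replicates 29 (0.35, adjusted p = 0.0769) and 30 (0.39, adjusted p = 0.0542). These 4 lower and 1 higher genes stand beside 20.8% lower and 5.46% higher among all genes at the FPKM minimum (2396 and 628, with TMM 1671 lower and 1776 higher).

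**Figure D3:**
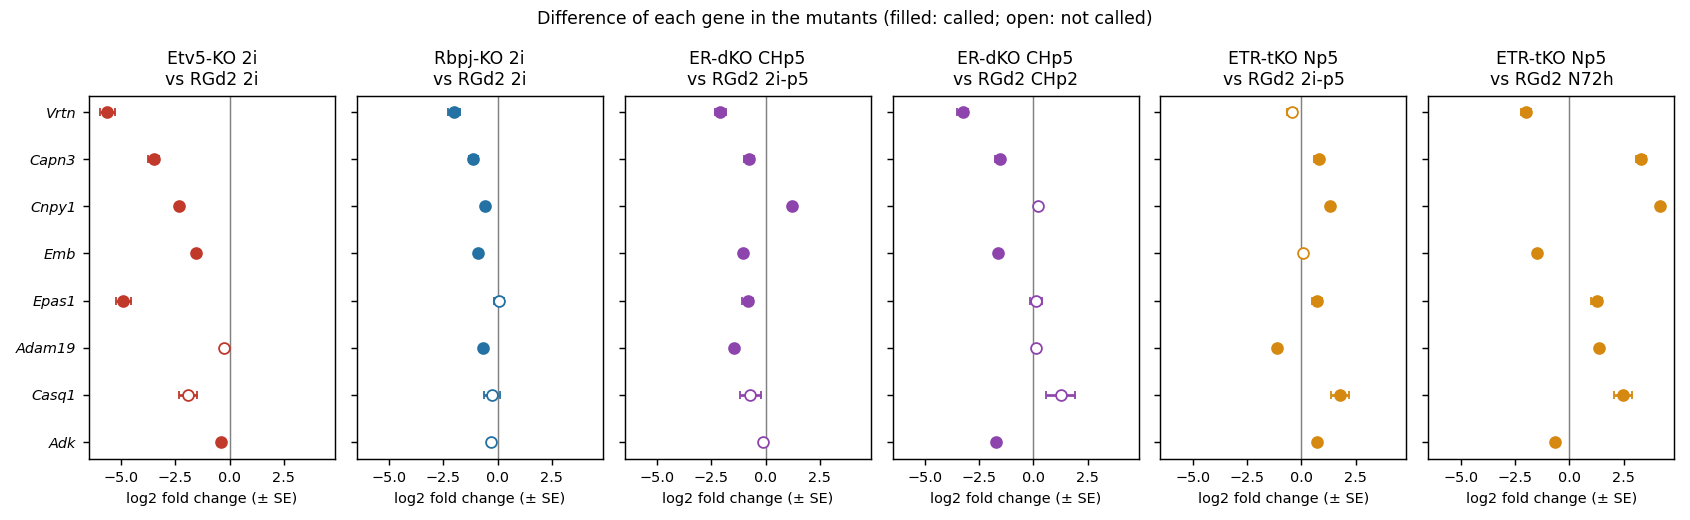
Log2 fold change (± SE) of the 8 genes in each mutant against an RGd2 condition, 1 panel per comparison, filled where called. All 8 points lie below 0 in *Etv5*-KO 2i, only *Cnpy1* lies above 0 in ER-dKO against 2i-p5, and 6 lie above 0 in ETR-tKO against 2i-p5, of which *Emb* (0.07) falls below 0 with TMM scaling (−0.18). Of all tested genes 72.3% lie below 0 in *Etv5*-KO 2i, 33.1% in ER-dKO and 29.5% in ETR-tKO against 2i-p5.

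In ER-dKO, 5 of the 8 genes were lower and 1 was higher than in RGd2 at 2i-p5, the naive control of the same set of libraries. *Vrtn* had 109, 79.3 and 76.1 normalized counts in ER-dKO and 382, 390.5 and 355 in RGd2, 4.27-fold lower (log2 fold change −2.09, SE 0.25, adjusted p = 1.19e-08). *Adam19* had 1574, 1299 and 1483 and 3662, 3815 and 4379.9, 2.73-fold lower (log2 fold change −1.45, SE 0.13, adjusted p = 4.14e-12). *Emb* had 1319.7, 1338 and 1237 and 2509.7, 2874 and 2582, 2.05-fold lower (log2 fold change −1.03, SE 0.13, adjusted p = 8.09e-08). In these 3 genes every ER-dKO library was below every RGd2 library. The loss was smaller for *Epas1* (152, 165 and 117 against 313, 291 and 187, log2 fold change −0.83, SE 0.25, adjusted p = 0.00993) and *Capn3* (143, 114 and 161 against 269, 254 and 186, −0.76, SE 0.21, adjusted p = 0.00539), again without overlap. *Cnpy1* rose, from 884, 906 and 909 in RGd2 to 2199, 1974 and 2197 in ER-dKO, 2.36-fold (log2 fold change 1.24, SE 0.12, adjusted p = 5.90e-11). *Adk* (−0.13, 95% interval −0.41 to 0.14) and *Casq1* (−0.71, −1.65 to 0.23) were not called. Over all genes at the FPKM minimum 8.43% were called lower and 33.9% higher (975 and 3922), and with TMM 2367 lower and 2526 higher, where *Adk* was also called lower (−0.34, adjusted p = 0.0213). Without ERc9 the same genes were called except *Epas1* (−0.71, adjusted p = 0.0558), whose call was lost too without RGd2 2i-p5 replicate 1 (−0.70, adjusted p = 0.0590) or 2 (−0.73, adjusted p = 0.0537). Genotype and medium differ together in this comparison and cannot be told apart.
Against RGd2 in the same medium, CHp2, ER-dKO had 4 genes lower. *Vrtn* was 870.1, 739.7 and 921 in RGd2 CHp2, 9.58-fold above ER-dKO (log2 fold change of ER-dKO −3.26, SE 0.25, adjusted p = 4.88e-14). *Adk*, which overlapped RGd2 at 2i-p5, was 2693, 2377 and 2476 in RGd2 CHp2 and 753, 819.9 and 731 in ER-dKO, 3.27-fold lower (log2 fold change −1.71, SE 0.14, adjusted p = 3.52e-13). *Emb* (4295, 4133 and 3845 in RGd2 CHp2) was 3.15-fold lower (−1.66, SE 0.14, adjusted p = 3.03e-13) and *Capn3* (432, 444 and 336) 2.94-fold lower (−1.55, SE 0.21, adjusted p = 5.74e-08). None of these 4 overlapped between the groups, and without ERc9 the same 4 were called. *Cnpy1* (0.23, 95% interval 0.00 to 0.45), *Epas1* (0.11, −0.43 to 0.65) and *Adam19* (0.12, −0.13 to 0.37) were not called, and *Casq1* was at 0 counts in 2 of the 3 RGd2 CHp2 libraries. Of all genes at the FPKM minimum 21.3% were lower and 28.3% higher. The passage differs between the groups, and so does the summed naive marker level, 1247 to 1271 FPKM in ER-dKO against 611 to 631 in RGd2 CHp2. The trophoblast list summed to 25.0 to 27.1 FPKM in ER-dKO and 101.7 to 145 in RGd2 CHp2, and the mesendoderm list to 14.6 to 16.4 and 69.9 to 73.4. In RGd2 CHp2 these sums were mostly *Krt8* (49.7), *Krt18* (53.7) and *T* (69.1). The part of these markers in the values was not tested.

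Against RGd2 at 2i-p5, ETR-tKO did not lose the genes as *Etv5*-KO did against RGd2 in 2i. Here 1 of the 8 was lower and 5 were higher. The lower gene was *Adam19*, with 2061, 1726 and 1706 normalized counts in ETR-tKO and 3662, 3815 and 4379.9 in RGd2, 2.16-fold lower and without overlap (log2 fold change −1.11, SE 0.12, adjusted p = 1.79e-09). *Cnpy1* was 1793, 2453 and 2438 in ETR-tKO, 2.47-fold above RGd2 (log2 fold change 1.31, SE 0.12, adjusted p = 1.00e-11). *Capn3* was 328, 419 and 464 in ETR-tKO, 1.73-fold higher (log2 fold change 0.79, SE 0.21, adjusted p = 0.00228), and *Adk* was 1565, 1282 and 1260.1, 1.63-fold higher (0.70, SE 0.14, adjusted p = 0.000105). Each of these 3 lay above all RGd2 2i-p5 libraries. *Casq1* rose from 33, 7.89 and 11.3 to 35.8, 72 and 50.9 (log2 fold change 1.78, SE 0.41, adjusted p = 0.000596) and *Epas1* from 313, 291 and 187 to 514, 405 and 357 (0.72, SE 0.25, adjusted p = 0.0181), both without overlap. The *Epas1* call was lost under TMM scaling (0.49, adjusted p = 0.142), in DESeq2 (0.70, adjusted p = 0.0708) without replicate 13 (0.56, adjusted p = 0.0936) and without RGd2 2i-p5 replicate 3 (0.50, adjusted p = 0.158). The mean of *Casq1* in ETR-tKO, 1 FPKM, was at the minimum. Without replicate 14 it was under it, so that *Casq1* was not called against RGd2 2i-p5 (1.51, adjusted p = 0.00621), RGd2 N72h (2.21, adjusted p = 4.16e-05) or ER-dKO (2.22, adjusted p = 4.18e-05), and the genes higher numbered 4, 4 and 6. The neural list summed to 67.4 to 70.7 FPKM in ETR-tKO, 23.4 to 25.8 in RGd2 2i-p5 and 21.9 to 24.4 in ER-dKO, mostly *Tubb3*, and its part in these values was not tested.
*Vrtn* rested on 1 library in ETR-tKO. It was 454 in replicate 13 but 184 and 189 in the other libraries, which share a *Tcf3* clone, against 382, 390.5 and 355 in RGd2 2i-p5, so that the groups overlapped and it was not called (log2 fold change −0.42, SE 0.23, adjusted p = 0.151). Of the ETR-tKO lines, that of replicate 13 had the lowest *Tcf7l1* and *Rbpj* and the highest *Etv5* counts, and their part was not tested. Without replicate 13 *Vrtn* was called lower (−1.01, adjusted p = 0.000241), as it was with TMM scaling (−0.65, adjusted p = 0.0324) and with a filter of 1 count in any library (−0.42, adjusted p = 0.0426). *Emb*, at 2905, 2665 and 2781 in ETR-tKO and 2509.7, 2874 and 2582 in RGd2, overlapped, with a log2 fold change of 0.07 (95% interval −0.19 to 0.33) that was −0.18 with TMM. Among all genes at the FPKM minimum 9.53% were called lower and 37.7% higher (1126 and 4459, with TMM 3161 lower and 2719 higher). Genotype and medium differ together here as well and cannot be told apart.
Plain N2B27 was shared with RGd2 N72h, against which 3 genes were lower and 5 higher in ETR-tKO. *Vrtn* was 1047, 1226 and 1077 in RGd2 N72h, 3.99-fold above ETR-tKO (log2 fold change of ETR-tKO −2.0, SE 0.23, adjusted p = 1.46e-09), *Emb* was 2.77-fold (−1.47, SE 0.13, adjusted p = 3.64e-12) and *Adk* 1.56-fold (−0.65, SE 0.14, adjusted p = 0.00013) lower in ETR-tKO. *Cnpy1* was 139, 111 and 116 in RGd2 N72h, 18.2-fold under ETR-tKO (log2 fold change 4.19, SE 0.14, adjusted p = 1.19e-25), and *Capn3* was 45.6, 37.5 and 38.4, 9.92-fold under it (3.31, SE 0.24, adjusted p = 7.85e-15). *Casq1* (2.48, SE 0.41, adjusted p = 2.22e-06), *Adam19* (1.37, SE 0.13, adjusted p = 6.59e-12) and *Epas1* (1.25, SE 0.24, adjusted p = 3.46e-05) were higher in ETR-tKO too. Libraries of the groups lay apart in each of the 8 genes, a description given without the share over all genes. The background was 23.6% lower and 35.5% higher (2909 and 4381 genes, with TMM 4116 lower and 4068 higher). RGd2 N72h held 419 to 436 FPKM of summed naive markers against 1274 to 1361 in ETR-tKO and 77.0 to 92.4 FPKM of neural markers against 67.4 to 70.7, and time in the medium differs. Their part in these values was not tested.
Between the combined mutants, 7 of the 8 genes were higher in ETR-tKO than in ER-dKO. The log2 fold changes were 2.49 (SE 0.37, adjusted p = 1.76e-06) for *Casq1*, 1.67 (SE 0.24, adjusted p = 1.01e-06) for *Vrtn*, 1.55 (SE 0.20, adjusted p = 1.14e-07) for *Capn3* and 1.55 (SE 0.24, adjusted p = 3.20e-06) for *Epas1*. They were 1.10 (SE 0.13, adjusted p = 2.30e-08) for *Emb*, 0.83 (SE 0.14, adjusted p = 1.01e-05) for *Adk* and 0.34 (SE 0.12, adjusted p = 0.0453) for *Adam19*. No ETR-tKO library overlapped an ER-dKO library in these 7, while *Cnpy1* overlapped and was not called (0.07, 95% interval −0.16 to 0.29). Of all genes at the FPKM minimum 9.9% were lower and 14.6% higher (1151 and 1700, with TMM 2448 lower and 1912 higher). The *Adam19* call was lost without ERc9 (0.35, adjusted p = 0.0861), ER-dKO replicate 11 (0.26, adjusted p = 0.220) or ETR-tKO replicate 13 (0.24, adjusted p = 0.241), and with scaling by the total spike-in count (0.33, adjusted p = 0.0634). The other 6 were still called without ERc9. Loss of *Tcf3* and the medium differ together between these groups and cannot be told apart.

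Whether a combined mutant changed a gene differently from *Etv5*-KO was tested as the difference of their log2 fold changes, each against its own RGd2 2i group. For ER-dKO 6 of the 8 genes passed, at a background of 36.5% of the 18892 genes in either direction (6888 genes, with TMM 2714 lower and 2369 higher). The loss was smaller in ER-dKO by 4.08 (SE 0.44, adjusted p = 1.73e-09) for *Epas1*, 3.54 (SE 0.45, adjusted p = 6.21e-08) for *Vrtn* and 2.74 (SE 0.33, adjusted p = 2.03e-08) for *Capn3* on the log2 scale. *Cnpy1* turned from lower to higher, a difference of 3.57 (SE 0.17, adjusted p = 3.76e-19). *Adam19* was the only gene lowered more in ER-dKO, with −1.17 (SE 0.17, adjusted p = 1.59e-06). The difference of *Emb*, 0.50 (SE 0.19, adjusted p = 0.0372), was lost with TMM scaling (0.07, adjusted p = 0.757) and in a model of only the libraries compared (0.49, adjusted p = 0.0833). It was lost without any 1 of 8 of the 12 libraries, at 0.34 (adjusted p = 0.175) without RGd2 2i replicate 31 and at 0.43 (adjusted p = 0.0945) without replicate 32, and at an adjusted p of 0.0615 to 0.0835 without RGd2 2i-p5 replicate 1 or 3, ER-dKO replicate 10 or 11, or *Etv5*-KO replicate 25 or 27. *Casq1* (1.21, SE 0.63, adjusted p = 0.133) and *Adk* (0.24, SE 0.20, adjusted p = 0.353) did not pass. *Casq1* passed without RGd2 2i-p5 replicate 1 (1.82, adjusted p = 0.0295) and *Adk* without RGd2 2i replicate 33 (0.46, adjusted p = 0.0122). Without ERc9 the same 6 genes passed.
For ETR-tKO all 8 genes passed, at a background of 40.6% (7672 genes, with TMM 3149 lower and 2989 higher). The largest differences were 5.62 (SE 0.43, adjusted p = 1.35e-13) for *Epas1*, 5.21 (SE 0.43, adjusted p = 1.19e-12) for *Vrtn* and 4.29 (SE 0.33, adjusted p = 1.09e-13) for *Capn3*. They were followed by 3.69 (SE 0.58, adjusted p = 2.53e-06) for *Casq1*, 3.64 (SE 0.17, adjusted p = 1.15e-19) for *Cnpy1*, 1.60 (SE 0.19, adjusted p = 9.92e-09) for *Emb* and 1.08 (SE 0.20, adjusted p = 3.64e-05) for *Adk*. *Adam19* again went the other way, with −0.83 (SE 0.17, adjusted p = 0.000201). The medians of all genes were 0.43 for the ER-dKO difference and 0.50 for the ETR-tKO difference, and the values above are to be read against these. Both differences share the RGd2 2i-p5, RGd2 2i and *Etv5*-KO 2i libraries. Clones c1 and c17 of *Etv5*-KO are also in the 16 h set, in which the genes were chosen for low *Etv5*-KO values. These differences are therefore not independent of the selection. The medium differs along with the genotype in both, and the 2 cannot be told apart. In RGd2 itself, CH alone raised 5 of the 8 genes and lowered 2 against 2i-p5, as given below.

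**Figure D4:**
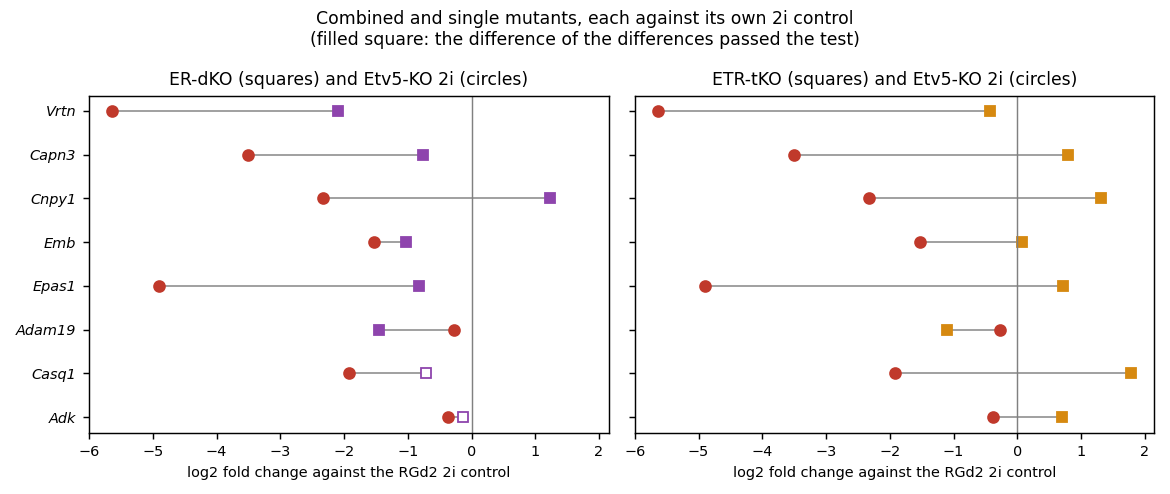
Log2 fold change of the 8 genes in *Etv5*-KO 2i (circles) and in a combined mutant (squares), each against its own RGd2 2i group, filled where the difference between both passed the test. For 7 genes the square lies to the right of the circle in both panels, in ER-dKO for *Adk* only under spike-in scaling, and *Adam19* lies to the left. Of all tested genes only 24.4% lie to the left in ER-dKO and 22.1% in ETR-tKO.

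In RGd2 itself the 8 genes did not move together as cells left 2i. At 72 h in N2B27, 3 were higher and 3 lower than at 2i-p5. *Emb* (log2 fold change 1.54, SE 0.14, adjusted p = 1.25e-12), *Vrtn* (1.57, SE 0.23, adjusted p = 3.11e-07) and *Adk* (1.35, SE 0.14, adjusted p = 1.58e-10) rose. *Cnpy1* (−2.88, SE 0.14, adjusted p = 1.04e-20), *Capn3* (−2.52, SE 0.26, adjusted p = 5.38e-11) and *Adam19* (−2.48, SE 0.13, adjusted p = 3.38e-19) fell. None of these 6 overlapped between the groups, while *Epas1*, at 115, 95.3 and 298 and 313, 291 and 187, and *Casq1*, at 7.26, 4.68 and 12.8 and 33, 7.89 and 11.3, did. *Epas1* was not called (−0.54, SE 0.26, adjusted p = 0.0798), but its highest N72h and lowest 2i-p5 library were both of the clonal line. With the RGd2 line as a replicate block it was called lower (−0.66, adjusted p = 0.000285), as it was in a model of only these libraries (−0.53, adjusted p = 0.00944), with a filter of 1 count in any library (−0.54, adjusted p = 0.00391) and without 2i-p5 replicate 3 (−0.75, adjusted p = 0.0252) or N72h replicate 9 (−1.29, adjusted p = 3.36e-05). The background was 22.9% lower and 34.2% higher (2802 and 4189 genes, with TMM 4204 lower and 3802 higher).
In CH alone, 5 genes were higher and 2 lower than at 2i-p5. *Adk* (1.58, SE 0.14, adjusted p = 7.44e-12), *Vrtn* (1.17, SE 0.23, adjusted p = 8.97e-05), *Cnpy1* (1.01, SE 0.12, adjusted p = 5.20e-09), *Capn3* (0.80, SE 0.21, adjusted p = 0.0026) and *Emb* (0.62, SE 0.13, adjusted p = 0.000228) rose, and *Adam19* (−1.57, SE 0.13, adjusted p = 4.03e-13) and *Epas1* (−0.94, SE 0.28, adjusted p = 0.00681) fell, and none of these 7 overlapped. The *Epas1* call was lost without CHp2 replicate 5 (−0.77, adjusted p = 0.0593). The background was 13.6% lower and 28.6% higher (1635 and 3450, with TMM 3443 lower and 2755 higher). *Capn3*, *Epas1* and *Casq1* had their highest RGd2 level at 16 h, at 4.71-fold, 3.88-fold and 4.02-fold the 2i level without overlap (description, no test), and their means at 72 h were under the 2i means, with overlap for *Epas1* and *Casq1*. The 16 h levels were also above the 2i levels in *Etv5*-KO, where *Epas1* was 16, 6.75 and 10.7 in 2i and 598 and 682 at N16h, 55.8-fold higher. In *Etv5*-KO *Capn3* was 14-fold and *Casq1* 8.46-fold higher at N16h than in 2i, likewise without a test, since the N16h libraries chose the genes.
Of the RGd2 controls themselves, 2i-p5 had *Cnpy1* lower (log2 fold change −0.58, SE 0.12, adjusted p = 0.000277) and *Adam19* higher (0.33, SE 0.12, adjusted p = 0.0309) than 2i. The *Adam19* call was lost without RGd2 2i replicate 32 or 33 or 2i-p5 replicate 3 (0.21 to 0.30, adjusted p 0.0918 to 0.162), with the replicate block and in a model of only these libraries. The background was 49.4% lower and 2.89% higher, 5709 and 334 genes, with TMM 1327 lower and 1678 higher. Under TMM *Cnpy1* was not called, and *Emb* (0.32) and *Adam19* were called higher.

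Across the 11 conditions the levels spanned from 3.33-fold for *Adk* to 158-fold for *Epas1* between the highest and lowest condition means. *Vrtn* was highest in RGd2 N72h, then RGd2 CHp2, followed by RGd2 N16h, 2i-p5, 2i and ETR-tKO, each of which overlapped its neighbour. Below them stood *Rbpj*-KO 2i and ER-dKO, which overlapped, and then *Rbpj*-KO N16h, *Etv5*-KO N16h and *Etv5*-KO 2i, each apart from the next. All *Vrtn* levels of mutants were thus below those of RGd2 in the mean. *Epas1* was highest in *Rbpj*-KO N16h, RGd2 N16h and *Etv5*-KO N16h, each apart from the next, and lowest in *Etv5*-KO 2i, with the other 7 conditions overlapping their neighbours. *Capn3* was highest in RGd2 N16h and *Rbpj*-KO N16h, which overlapped, and lowest in RGd2 N72h and *Etv5*-KO 2i, which did not. Between them RGd2 CHp2, ETR-tKO, *Etv5*-KO N16h, RGd2 2i and 2i-p5 overlapped in turn, and *Rbpj*-KO 2i overlapped ER-dKO below these.
*Casq1* was highest in *Rbpj*-KO N16h, RGd2 N16h and *Etv5*-KO N16h, each apart, and the other 8 conditions overlapped their neighbours down to RGd2 CHp2. *Cnpy1* was highest in ETR-tKO, ER-dKO and RGd2 CHp2, which overlapped in turn, and then in RGd2 2i. *Rbpj*-KO 2i, RGd2 2i-p5, *Rbpj*-KO N16h and RGd2 N16h overlapped below it, and *Etv5*-KO N16h, *Etv5*-KO 2i and RGd2 N72h stood apart at the low end. *Emb* ran from RGd2 N72h and CHp2, each apart, through an overlapping run of RGd2 N16h, ETR-tKO, RGd2 2i, 2i-p5 and *Rbpj*-KO N16h to *Etv5*-KO N16h and *Rbpj*-KO 2i, which overlapped, then ER-dKO and *Etv5*-KO 2i. Both *Emb* and *Vrtn* therefore had their lowest mean in *Etv5*-KO 2i and their highest in RGd2 N72h.
*Adam19* was highest in RGd2 2i-p5, then in an overlapping run from RGd2 N16h through RGd2 2i, *Etv5*-KO 2i, *Rbpj*-KO N16h and *Rbpj*-KO 2i to ETR-tKO. *Etv5*-KO N16h, ER-dKO with RGd2 CHp2, and RGd2 N72h followed. *Adk* was highest in RGd2 CHp2, RGd2 N72h and ETR-tKO, each apart from the next, and the other 8 conditions overlapped their neighbours. Without ERc9 the orders were the same for the 8 genes except that ER-dKO stood above *Etv5*-KO N16h for *Adk*, still overlapping it. Per length, *Emb* was the most abundant of the 8 in RGd2 2i at 41.6 FPKM, followed by *Adk* at 18.6, *Adam19* at 15.4 and *Cnpy1* at 8.15. *Vrtn*, *Epas1* and *Capn3* lay between 2.12 and 3.6 FPKM, and *Casq1* at 0.548.
Genes whose condition means ran like those of a member were found by Pearson's r over the 11 conditions among 13317 genes. They were *Traf4* and *Atp10a* (both r = 0.87) for *Vrtn*, *Abl2* (0.96) and *Itgb7* (0.94) for *Epas1*, and 3110053B16Rik (0.96) and *Itgb7* (0.94) for *Capn3*. For *Casq1* they were *Pabpc6* and *Grm2* (both 0.96), for *Cnpy1* *Gm1976* (0.91), and for *Emb* *Exoc2* and *Bcl11b* (both 0.95). *Kcnk5* (0.91) and *Clps* (0.90) ran most like *Adam19*, and *Twist1* (0.96) ran like *Adk*. Among the members, the closest pairs were *Capn3* with *Epas1*, *Emb* with *Adk* (both 0.85) and *Vrtn* with *Emb* (0.84). The points share libraries and size factors, and with 11 conditions these values are descriptions only.

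Genes of the FGF-ERK response, the pathway under which *Etv5* is transcribed, give the setting of these changes. Of 22 listed genes 16 had at least 1 FPKM in *Etv5*-KO or RGd2 in 2i. Of these 10, the targeted *Etv5* included, were called lower and 2 higher, the list's median being −0.58 (log2) and that of all genes −0.23. Over all genes at the FPKM minimum 27.9% were called lower and 6.14% higher. Beside *Etv5* itself the largest called change was that of *Myc*, the growth regulator (−2.0), and *Etv4* (1.97) and *Etv1* were those called higher. In ER-dKO 13 of 17 were higher and 3 lower than in RGd2 2i-p5 (list median 0.77, all genes 0.20, and also 13 and 3 of 17 without ERc9), led by *Spry4*, a feedback inhibitor of the pathway (9.26), and *Etv4* (7.63). ETR-tKO had 15 of 19 higher and 2 lower (list median 1.47, all genes 0.27), led by *Spry4* (9.39) and *Egr1* (9.03), an immediate early gene. Of all genes at the FPKM minimum 33.9% were called higher in ER-dKO and 37.7% in ETR-tKO. RGd2 without the MEK inhibitor moved the same way from 2i-p5. At CHp2 16 of 19 were higher and 1 lower (list median 2.05, and 28.6% higher and 13.6% lower over all genes). At N72h 15 of 19 were higher and 2 lower (1.19, 34.2% and 22.9%). Against RGd2 CHp2, ER-dKO had 5 of 19 higher and 12 lower (−0.76, 28.3% and 21.3%). Against RGd2 N72h, ETR-tKO had 12 of 20 higher and 6 lower (0.47, 35.5% and 23.6%).
Relatives and partners of the 8 genes were counted in the same way, out of those with at least 1 FPKM in either group. Their list medians in *Etv5*-KO 2i ran from −0.27 for the embigin family and transporters to 0.11 for the calpains, against −0.23 over all genes. Of all genes at the FPKM minimum 27.9% were called lower and 6.14% higher there, and the counts below are to be read beside these shares. In *Etv5*-KO 2i the ADAM protease genes with a test, 6 of them at the FPKM minimum, had log2 fold changes of −0.25 to 0.22 and the 3 other canopy genes of −0.28 to 0.12, and these were not called. Of 7 calpain genes (12 listed) 1 was higher, *Capn5* (1.30), and 2 were lower, *Capn15* and *Capn10* (both −0.59). Of 8 hypoxia factors 2 were higher, the HIF prolyl hydroxylase gene *Egln3* (1.49) and *Vhl* (0.42), and *Hif1a* was not called. The transporters that embigin family proteins escort gave 2 lower genes of the 4 of that list, *Slc16a1* and *Slc16a3* (both −0.54). The store calcium list gave 1 higher and 2 lower of 6 genes (12 listed), led by the calcium sensor *Stim1* (−1.21) and its channel *Orai1* (−0.79). Of 8 adenosine genes (12 listed) 3 were higher and 3 lower, led by *Nt5e*, which makes adenosine from AMP (2.09), and *Ada*, which deaminates it (0.61).
Against RGd2 2i-p5 the list medians ran from 0.10 for the canopy genes to 0.60 for the calcium store genes in ER-dKO and from −0.14 for the canopy genes to 1.48 for the calcium store genes in ETR-tKO, with the medians of all genes as given above. Of all genes at the FPKM minimum 33.9% were called higher and 8.43% lower in ER-dKO, and 37.7% and 9.53% in ETR-tKO. Several of the counts below lie near these shares. *Nt5e* (4.86 in ER-dKO and 5.40 in ETR-tKO) and *Ada* (2.69 and 2.90) led 4 and 3 higher adenosine genes of 8 in each. The neural ADAM protein gene *Adam23* (2.46 and 2.25) led 3 and 4 higher ADAM genes of 6 in each. *Adam9* came next in ER-dKO (0.58) and *Adam22* in ETR-tKO (0.71), and *Adam19*, which is not on the list, was lower. Of 8 calcium store genes 5 were higher and 2 lower in ER-dKO, led by *Casq2*, the cardiac relative of *Casq1* (3.28), and the calcium pump gene *Atp2a3* (1.76). In ETR-tKO 5 of 9 were higher and 1 lower, led by *Atp2a3* (2.68) and *Casq2* (2.43). Of 7 calpain genes 3 were higher in ER-dKO, led by *Capn7* (0.75) and *Capn10* (0.58), and in ETR-tKO 5 of 8 were higher and 1 lower, led by *Capn2* (3.30) and *Capn10* (0.70). The hypoxia list gave 3 higher in each, of 7 in ER-dKO and 8 in ETR-tKO, *Arnt* and *Hif1a* (both 0.46) leading in ER-dKO and *Arnt2* (0.89) and *Hif1a* (0.48) in ETR-tKO. The embigin family and transporter list, with 4 genes in each, gave *Nptn* higher in ER-dKO (0.48), and *Slc16a3* higher (0.50) with *Slc16a1* (−0.69) and *Bsg* (−0.48) lower in ETR-tKO. Of the other canopy genes *Cnpy2* alone was called, lower in ETR-tKO (−0.41), opposite to *Cnpy1*. Without ERc9 the calls of these lists in ER-dKO were the same except for 2 genes, the hypoxia gene *Egln2* (0.31, adjusted p = 0.0708) and *Atp2a3*, which fell under the FPKM minimum (1.64, adjusted p = 8.89e-07) and left a calcium store median of 0.33.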

How the data were processed

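Total RNA-seq libraries of RGd2 mouse ESCs and mutant clones were analysed from the deposited gene counts. Per the submitters' processing notes, the authors processed reads with Trim Galore, TopHat2 (mm10) and featureCounts, versions not given in the sources used here. ERCC spike-ins had been added to the RNA. The deposited values were raw counts per gene, from 5986857 to 71439411 per library (median 29940141). 193 genes had no symbol (0.0259% of counts). All columns could be mapped to a sample (0 unused). Replicates differed by more than sampling noise (smallest chi-square per gene 3.25).

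Size factors were medians of ratios over 52 of 92 spike-ins. FPKM and log2 fold changes were computed here from the deposited counts. Filtering with filterByExpr left 18892 of 51826 genes. edgeR 4.0.16 (R 4.3.3, limma 3.58.1) quasi-likelihood tests were run on contrasts of the 11 conditions, fitted together over the 32 libraries. Genes were called at an adjusted p under 0.05 if 1 or both groups averaged 1 FPKM or more. Tests of differences used the adjusted p alone. The method was tested on simulated data. Groups followed the sample labels, by which the 16 h *Etv5*-KO group, not RGd2, has 2 libraries. Contrasts using RGd2 or *Etv5*-KO at 16 h were not tested, since these libraries chose the genes. The members and gene lists were chosen with earlier results of these data known.

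Alternatives were TMM, median-of-ratios and total spike-in scaling, DESeq2 1.42.0, other filters on low counts, no FPKM minimum, a fold minimum of 1.5, a model of only the libraries compared, FPKM scaled by spike-ins and leaving out each library. Lists, relatives of ETV5 and orders of levels were recomputed without ERc9, an alternative chosen after seeing the data. Named genes were the 8 members, the targeted genes with *Etv4* and *Etv1*, the 2 called genes of each list with the largest change per comparison, and the 2 genes most alike to each member, of which 1 each for *Cnpy1* and *Adk* is not reported here. Beyond this rule, *Bsg* and *Hif1a* in *Etv5*-KO were named after their values were seen. Positions came from GENCODE M21 and promoters from RefSeq GRCm38.p6. Figures used Python 3.11.15 and matplotlib 3.10.9. ETV5 peaks were not analysed here.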

Additional observations from a re-analysis of the deposited data

Results flagged for a closer look

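The change from RGd2 differed between the combined mutants and *Etv5*-KO by a test of the difference itself (edgeR quasi-likelihood, adjusted p-values in the report), with 3 libraries in each of the groups. In ER-dKO minus *Etv5*-KO the log2 differences were 4.08 for *Epas1*, 3.57 for *Cnpy1*, 3.54 for *Vrtn*, 2.74 for *Capn3*, 0.50 for *Emb* and −1.17 for *Adam19*, of which that of *Emb* was lost without any 1 of 8 of the 12 libraries. In ETR-tKO minus *Etv5*-KO they were 5.62 for *Epas1*, 5.21 for *Vrtn*, 4.29 for *Capn3*, 3.69 for *Casq1*, 3.64 for *Cnpy1*, 1.60 for *Emb*, 1.08 for *Adk* and −0.83 for *Adam19*. Media and library sets differ between these effects as well as genotypes, and they cannot be told apart. Clones c1 and c17 of *Etv5*-KO also took part in the 16 h choice of the genes, so these differences are not independent of it.

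The single mutants also differed from each other in 2i by the same kind of test. *Etv5*-KO minus *Rbpj*-KO was −4.97 on the log2 scale for *Epas1*, −2.37 for *Capn3*, −1.76 for *Cnpy1*, −0.62 for *Emb* and 0.40 for *Adam19*, the last of which was lost without any 1 of 4 of the 6 libraries. *Etv4* was higher in both single mutants in 2i (1.97 in *Etv5*-KO and 2.22 in *Rbpj*-KO), and its part in the values of the members was not tested.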

How the results depend on the processing

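The counts of members called kept within 1.5 times their value under most alternatives. With TMM, with median-of-ratios scaling and with a filter of 1 count in any library, ETR-tKO had 2 genes lower than RGd2 2i-p5. A fold minimum of 1.5 left 0 genes higher in *Etv5*-KO than in *Rbpj*-KO, and a model of only the libraries compared gave 1 gene higher, *Cnpy1*, in ER-dKO than in RGd2 CHp2. Between RGd2 2i-p5 and 2i the genes lower numbered 2 with no FPKM minimum and with the 1-count filter, and 0 with the fold minimum, TMM and median-of-ratios scaling. There the genes higher numbered 2 with TMM and median-of-ratios scaling, and 0 with the fold minimum, total spike-in scaling, a model of only those libraries and the replicate block.

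Directions that reversed with TMM and median-of-ratios scaling were those of *Adk* between the single mutants (0.067 and 0.063), *Emb* in ETR-tKO against 2i-p5 (−0.18 and −0.16) and *Adk* in the ER-dKO difference (−0.18 and −0.17). Between RGd2 2i-p5 and 2i they were *Vrtn* (0.35 and 0.33), *Emb* (0.32 and 0.31) and *Adk* (0.14 and 0.13). There *Vrtn* also reversed in DESeq2 (0.0011) and with the replicate block (0.024), as did *Emb* with the block (0.021). These scalings differ from the spike-in scaling by the shift of all genes given in the report. The other causes were not tested.

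With 1 library left out, the genes lower in *Etv5*-KO than in RGd2 2i numbered 5 to 7 and those higher than in *Rbpj*-KO 0 to 1. The genes lower numbered 1 to 2 in ETR-tKO and 1 to 2 in RGd2 CHp2 against 2i-p5, and between RGd2 2i-p5 and 2i 1 to 3 were lower and 0 to 1 higher. Upward ER-dKO differences numbered 4 to 6. Values that crossed 0 were *Epas1* in *Rbpj*-KO 2i (−0.12 to 0.21) and in ER-dKO against CHp2 (−0.060 to 0.33), *Cnpy1* between the combined mutants (−0.0055 to 0.20), and *Vrtn* (−0.15 to 0.21), *Emb* (−0.22 to 0.13) and *Adk* (−0.44 to 0.0090) between RGd2 2i-p5 and 2i. Replicate numbers are not shared between groups, so that the only replicate block was the line of RGd2 (parental or clonal) in comparisons within RGd2, and beside the calls between 2i-p5 and 2i given above it changed that of *Epas1* at N72h (−0.66, edgeR adjusted p = 0.000285). *Casq1* counts were too low in 2i, 2i-p5 and CHp2 to show small differences.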
